A study of Mus musculus with 15 samples.

Results

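Dendritic cells of a mouse line were exposed to diphenyl iodonium (DPI) together with dinitrofluorobenzene (DNFB), and their RNA was set against that of non-treated cells of the same line. The comparison took every array labelled DPI + DNFB (3 arrays) and every array labelled non-treated (3 arrays), 6 of 15 in all, with all 45037 probe sets other than the array's own controls. Of these, 27022 were bright enough to be tested, and they named 12701 genes, each given by its brightest probe set. The line came from the epidermis of newborn mice of the A/J strain, and all groups share that background. The other groups were DPI by itself, DNFB by itself and hydrogen peroxide (H2O2), with 3 arrays each. DPI and DNFB by themselves are given beside the combined exposure where they bear on a gene, and the H2O2 arrays enter the estimate of the spread, the filter on low signal, the choice of a gene's probe set and the range of the control measures.

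Doses, exposure times and the order in which DPI and DNFB were added are not given in the sources used here. The controls are labelled non-treated while the design text of the series speaks of vehicle, so whether they received a solvent is not settled. All arrays hold a single line, which stands for dendritic cells only as far as such a line does, and no label ties the arrays of a group to separate cultures. The p-values therefore speak of differences between these arrays, whose spread may be technical.

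DNFB is a contact allergen that binds covalently to proteins, and in skin the dendritic cells that take up such modified proteins carry them to lymph nodes and mature on the way. DPI blocks enzymes that work through a flavin group, among them the phagocyte NADPH oxidase, which makes superoxide, and complex I of the respiratory chain. Cells answer electrophiles and oxidants through the transcription factor NRF2, misfolded protein through heat shock factor, and a shortage of amino acids or a block of translation through ATF4. Dendritic cells answer danger signals with chemokines, costimulatory molecules and antigen presentation.

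The DPI + DNFB arrays differed from the non-treated arrays in their controls, least so on replicate 2. For beta-actin, probe sets near the 3' end gave more signal than those near the 5' end, by a ratio of 2.07, 1.5 and 2.29 on the DPI + DNFB arrays, against 1.25 on each non-treated array. That is 1.95 ± 0.405 with DPI + DNFB and 1.25 ± 0.0026 in non-treated cells (SD, n = 3 each, exact two-sided permutation p = 0.1, the smallest that 3 against 3 arrays allow), and the other 12 arrays reached up to 1.53, above replicate 2. The Gapdh ratio was 1.10 ± 0.160 with DPI + DNFB and 0.849 ± 0.0249 in non-treated cells (SD, n = 3 each). Bacterial transcripts added to the samples were also brighter: the geometric mean of 9 hybridization control probe sets was 14503, 9776 and 15858 with DPI + DNFB, against 6897, 5764 and 6675 in non-treated cells, and that of 12 poly-A control probe sets 1776, 872 and 1134 with DPI + DNFB, against 549, 540 and 390 in non-treated cells. The 100 brightest probe sets held 14.9% to 18.3% of the signal with DPI + DNFB and 10.3% to 11.6% in non-treated cells. How much of the differences below moves with these measures was examined only by leaving arrays out and by adding each 3'/5' ratio to the fit; RNA integrity itself was not measured.

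**Figure D1:**
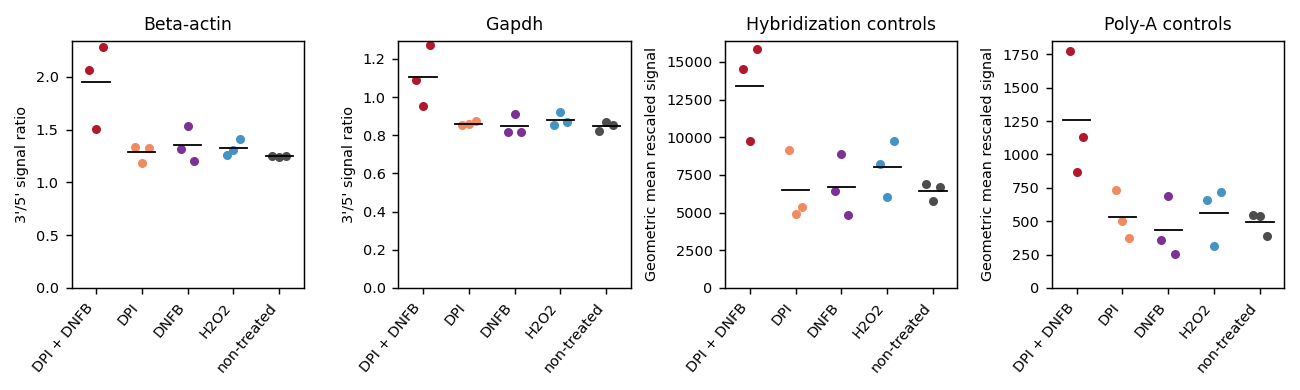
Control measures on each of the 15 arrays, 3 points a group with their mean as a bar: the 3'/5' signal ratio of beta-actin and of Gapdh, and the geometric mean rescaled signal of the hybridization and poly-A control transcripts. All 4 measures were higher on each DPI + DNFB array than on any non-treated array, and DPI + DNFB replicate 2 lay nearest to the other groups in the 3'/5' ratios (1.5 for beta-actin).

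The label of the cells was borne out in part by their markers. All 15 markers of dendritic and Langerhans cells on the array were bright enough to be tested, and their summed signal ran from 114400 to 123190 with DPI + DNFB and from 87549 to 102550 in non-treated cells. Most of that difference was in Cd74, which averaged 50600 with DPI + DNFB and 28220 in non-treated cells; Cd74 and H2-Eb1 were called higher, Itgax, Cd207 and Ciita lower, and the list's median log2 fold change was -0.04. The class II chain H2-Aa averaged 33600 with DPI + DNFB and 34630 in non-treated cells, and the integrin chain Itgax (CD11c) 2408 with DPI + DNFB and 3092 in non-treated cells. Langerin, Cd207, which defines Langerhans cells in skin, was near the dim end in both (37.1 with DPI + DNFB and 135 in non-treated cells), as was Flt3 (94.0 with DPI + DNFB and 91.6 in non-treated cells). Macrophage and monocyte markers, 10 on the array and 8 tested, summed to 17029 to 20255 with DPI + DNFB and 20416 to 24667 in non-treated cells, most of it the receptor Csf1r, so this line carries such transcripts as well. Csf1r was called lower, Lyz2 was called higher and 6 did not pass. The median log2 fold change of that list was 0.24, so its lower sum does not stand for most members. The summed markers of keratinocytes, fibroblasts, T and NK cells, B cells, mast cells and granulocytes, melanocytes and endothelial cells stayed at or under 994 in every array of both groups. Of these dim markers, Krt5, Trp63 and Ms4a1 were called higher with DPI + DNFB (log2 fold changes 1.28, 1.165 and 1.60). Their mean signals were 195, 114.5 and 165 with DPI + DNFB, against 81.9, 41.9 and 52.4 in non-treated cells. No other tested member of those lists passed. In a bulk sample, fewer cells of a kind and less RNA per cell cannot be told apart.

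Against non-treated cells, 1839 genes were higher with DPI + DNFB (14.5% of those tested) and 2303 were lower (18.1%), and 583 and 607 of these differed by at least 2-fold. Shares of list members that rose or fell are read below beside these 14.5% and 18.1%. The median log2 fold change over all genes was 0.02. When each array was centred on its median instead of its trimmed mean, that median moved to -0.23 and the split became 881 higher and 3629 lower, 19.5% higher in place of 44.4% of the genes called, so the balance of rises and falls depends on the scaling. Arrays that the submitters had scaled to 500, replicates 2 and 3 of both groups, gave 1160 higher and 1467 lower by themselves. Those scaled to 250 held only replicate 1 of both groups. The median log2 fold change over all genes was 0.03 there, and the spread came from DNFB arrays alone. When replicate 2 stood alone for the DPI + DNFB group, 779 were higher and 1173 lower; with the beta-actin ratio as a covariate, 362 were higher and 437 lower. The fold change also moved with brightness: its median was 0.33 in the dimmest and -0.14 in the eighth of 10 equal bins of genes, and 0.67 among the 100 brightest genes, of which 82 were higher and 1 was lower.

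**Figure D2:**
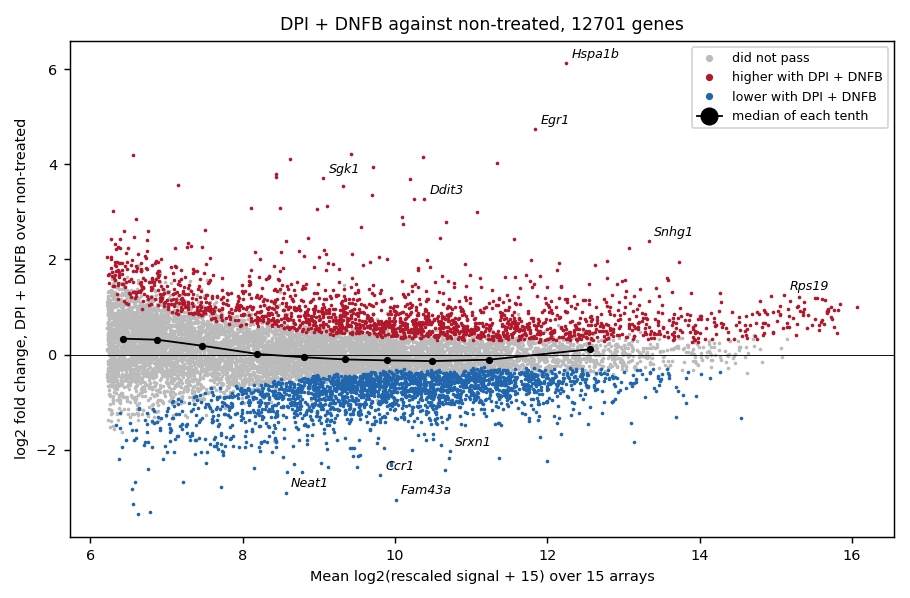
log2 fold change of DPI + DNFB over non-treated against mean log2 signal over all 15 arrays, 1 point a gene, coloured by the limma test at an adjusted p of 0.05. The black line joins the medians of the 10 equal bins of signal and runs from 0.33 in the dimmest to -0.14 in the eighth and 0.11 in the brightest; Hspa1b lies highest at 6.12.

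The steepest rises were stress and early response genes. Hspa1b, an inducible HSP70 chaperone that refolds damaged protein, had signals of 18069, 28411 and 23202 with DPI + DNFB, against 151, 491 and 405 in non-treated cells (log2 fold change 6.12 ± 0.52, adjusted p = 8.13e-08). Egr1, a zinc finger transcription factor that cells switch on within minutes of a stimulus, had 14104, 14116 and 10782 with DPI + DNFB, against 952, 522 and 202 in non-treated cells (log2 fold change 4.74 ± 0.42, adjusted p = 1.85e-07). The 12 largest rises and falls were chosen among genes whose groups did not overlap, so their separation is no result. Such separation, with DPI + DNFB higher, was found in 21.4% of all genes, and with DPI + DNFB lower in 23%. Genes taken from the lists below for passing with a large fold change are nearly bound to be apart as well. Where the text says that their groups were apart, it describes the arrays, is read beside these shares and is no further result.

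Next in order came Gadd45b, a growth arrest and stress signalling protein, with 2470, 2185 and 1753 with DPI + DNFB, against 52.5, 145 and 127 in non-treated cells (log2 fold change 4.21 ± 0.24, adjusted p = 8e-10). It was followed by Crtam, a surface receptor of the immunoglobulin family known from activated lymphocytes (4.19), whose non-treated signals of 10.7, 2.12 and 9.88 were under the pseudocount of 15, on which its fold depends. The macrophage chemokine Ccl3 (4.16), the transcription factors Fosb (4.12), Fos (4.02), Nr4a3 (3.94) and Egr2 (3.80), the stress-linked kinases Plk2 (3.74) and Sgk1 (3.70), and Ppp1r15a (GADD34, 3.69), which directs the phosphatase that reopens translation, complete the 12 largest. All 12 passed the test in every fit that left out a single array of either group.

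Among the 12 largest falls, Fam43a had 473, 516 and 434 with DPI + DNFB, against 4052, 4029 and 4025 in non-treated cells (log2 fold change -3.05 ± 0.20, adjusted p = 3e-09). The chemokine receptor Ccr1, which guides immature dendritic cells and monocytes to inflamed tissue, had 344, 764 and 455 with DPI + DNFB, against 3249, 2780 and 2782 in non-treated cells (log2 fold change -2.53 ± 0.23, adjusted p = 1.88e-07). The lysophosphatidic acid receptor Lpar6 had 561, 821 and 645 with DPI + DNFB, against 3807, 3859 and 3292 in non-treated cells (log2 fold change -2.42 ± 0.16, adjusted p = 3.61e-09). F8a (-3.35), Ttc30a1 (-3.31), Oxsm (-2.79, mitochondrial fatty acid synthesis), Zfp113 (-2.68), Nck1 (-2.47, an adaptor of receptor signalling), Kctd14 (-2.46), Abcc10 (-2.41, an export pump) and Tut1 (-2.38, a terminal uridylyltransferase) were lower as well. Neat1, taken up below, completes the set. The only other tested probe set of Oxsm had the opposite sign, and the mean of both gave -1.28. Some of these genes were less low on replicate 2 than on the other DPI + DNFB arrays: Oxsm had 12.2, 195 and 31.6 with DPI + DNFB, against 424, 419 and 446 in non-treated cells. Tut1 had 14.0, 240 and 62.6 with DPI + DNFB, against 369, 528 and 376 in non-treated cells. With the beta-actin ratio as a covariate, F8a, Oxsm, Zfp113, Nck1, Abcc10, Tut1 and Neat1 no longer passed, with Oxsm at -0.74 and Tut1 at -0.77.

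**Figure D3:**
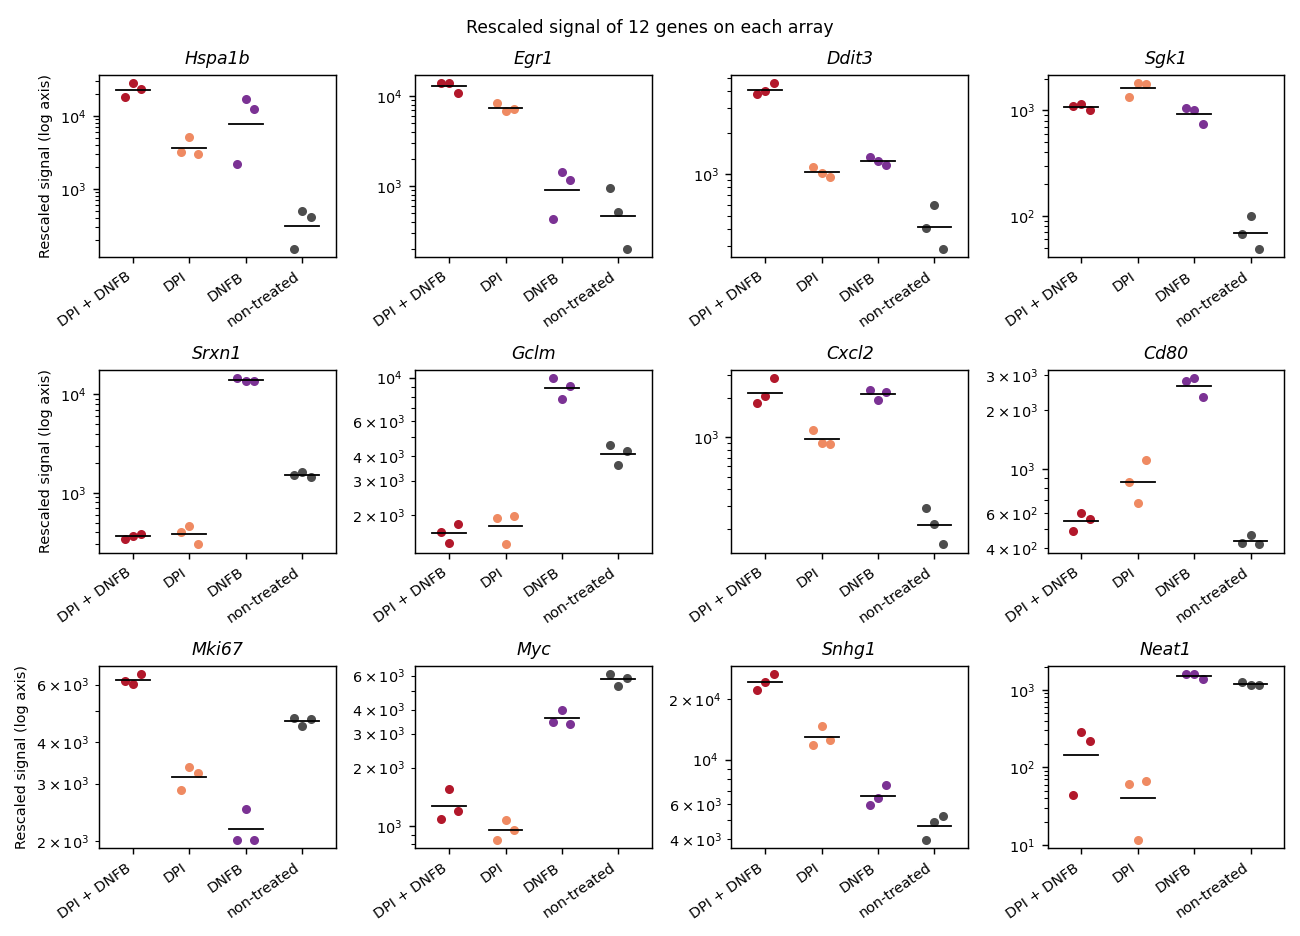
Rescaled signal, on a log axis, of 12 genes on each of 3 arrays a group, with the geometric mean as a bar. Hspa1b, Ddit3 and Snhg1 are highest with DPI + DNFB; Srxn1 and Gclm lie below non-treated cells with DPI + DNFB and with DPI and above them with DNFB; Mki67 is above non-treated cells with DPI + DNFB only.

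Immediate early genes, the transcription factors and feedback regulators that a signal induces without new protein synthesis, rose widely: of 32 members, all tested, 22 rose, 3 fell and 7 did not pass, with a median log2 fold change of 1.20. With the beta-actin ratio as a covariate, 18 rose and 2 fell. Besides the factors above, Klf4 rose (3208, 3380 and 2560 with DPI + DNFB, against 561, 614 and 466 in non-treated cells; log2 fold change 2.45 ± 0.18, adjusted p = 1.51e-08), as did the small MAF protein Maff (3099, 2174 and 2834 with DPI + DNFB, against 399, 363 and 365 in non-treated cells; log2 fold change 2.78 ± 0.15, adjusted p = 2.99e-10). In both, all DPI + DNFB arrays were above all non-treated arrays. Klf2, a factor that keeps leukocytes quiescent, had 219, 290 and 183 with DPI + DNFB, against 101, 125 and 125 in non-treated cells (log2 fold change 0.88 ± 0.30, adjusted p = 0.0316); its groups were apart, but leaving out 1 array ended the call in 5 of 6 cases, with log2 values from 0.71 to 0.93.

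The falls in the same list were steep too. Myc, which drives growth genes, had 1086, 1544 and 1198 with DPI + DNFB, against 6126, 5314 and 5842 in non-treated cells (log2 fold change -2.17 ± 0.13, adjusted p = 9.63e-10). Dusp6, the phosphatase that switches off ERK, had 1601, 2045 and 2048 with DPI + DNFB, against 10342, 8178 and 8370 in non-treated cells (log2 fold change -2.23 ± 0.14, adjusted p = 2.35e-09). Mcl1, a short-lived BCL2 family protein that keeps cells alive, had 3084, 5792 and 4234 with DPI + DNFB, against 11051, 11547 and 11854 in non-treated cells (log2 fold change -1.44 ± 0.20, adjusted p = 2.73e-05). No array of either group crossed into the other for any of them. Against DPI by itself, Egr1, Fos and Egr2 did not pass (log2 differences 0.79, 0.31 and -0.34, adjusted p = 0.197, 0.472 and 0.281), whereas against DNFB by itself they were higher by 3.81, 3.24 and 3.28 (adjusted p = 1.02e-06, 5.33e-08 and 1.61e-09).

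Heat shock and chaperone genes that passed all rose. Of 24 listed, 22 were on the array and 21 tested; 12 rose, none fell and 9 did not pass, with a median of 0.76, and 7 rose with the beta-actin ratio as a covariate, where the median was 0.72. In 4 alternatives 1 or 2 members were lower, among them arrays centred on their medians, with 10 higher and 2 lower. Hspa1a, a near-identical copy of Hspa1b whose probes may share its signal, had 88.2, 245 and 169 with DPI + DNFB, against 2.28, 5.65 and 11.4 in non-treated cells (log2 fold change 3.01 ± 0.53, adjusted p = 0.000271). These non-treated signals were under the pseudocount of 15, on which the fold of Hspa1a depends. Hsph1, an HSP110 that recharges HSP70, had 24117, 25034 and 25087 with DPI + DNFB, against 6260, 7313 and 5750 in non-treated cells (log2 fold change 1.95 ± 0.16, adjusted p = 5.6e-08). Dnajb9, a J-domain partner of the ER chaperone BiP, had 6038, 6773 and 5569 with DPI + DNFB, against 1007, 1264 and 1093 in non-treated cells (log2 fold change 2.44 ± 0.16, adjusted p = 3.91e-09). For all of them the groups were fully apart.

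Hspa1b was above both single exposures. Its geometric mean was 22838 with DPI + DNFB, 3649 with DPI, 7707 with DNFB and 313 in non-treated cells. The difference was 2.64 ± 0.52 against DPI (adjusted p = 0.00118) and 1.57 ± 0.52 against DNFB (adjusted p = 0.022) on the log2 scale, where the DNFB arrays spread from 2187 to 16908. Hsph1, in contrast, was higher than with DPI (1.43 ± 0.16, adjusted p = 7.97e-06) and differed from DNFB by 0.24 ± 0.16, which did not pass (adjusted p = 0.246).

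Because Hsph1 is a target of heat shock factor, its promoter is shown. The window was read from RefSeq (GRCm38.p6) from 250 bases before to 50 bases after the annotated start. The motif searched was the heat shock element, GAA, TTC and GAA with any 2 bases between each, on both strands, which 0.603% of 32851 such windows hold. It is in capitals below and overlaps no other motif searched. Of 12 listed chaperone genes that rose, 10 had a window in the table, and those of Hspe1 and Hsph1 held the motif. Counted by gene, 0.662% hold it in any window. A match is a description of these letters, not of binding. The window of Hsph1, 1 of 2 for this gene, both with the motif, lies at chr5:149636266-149636565, minus strand.
Hsph1: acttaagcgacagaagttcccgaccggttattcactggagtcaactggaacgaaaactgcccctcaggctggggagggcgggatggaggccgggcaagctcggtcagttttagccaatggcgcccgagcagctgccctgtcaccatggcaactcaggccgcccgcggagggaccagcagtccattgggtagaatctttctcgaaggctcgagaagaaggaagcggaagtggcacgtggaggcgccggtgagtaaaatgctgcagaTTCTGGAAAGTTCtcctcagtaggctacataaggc

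ATF4 and amino acid response genes that passed rose as well. Of 30 listed, 29 were on the array and 27 tested: 18 rose, none fell and 9 did not pass, with a median of 0.77, and 15 rose with the beta-actin ratio as a covariate. In 5 alternatives 1 or 2 members were lower, among them arrays centred on their medians, with 14 higher and 2 lower. Ddit3 (CHOP), a transcription factor of prolonged stress, had 3780, 3976 and 4592 with DPI + DNFB, against 406, 596 and 287 in non-treated cells (log2 fold change 3.27 ± 0.19, adjusted p = 8.63e-10). The repressor Atf3 had 1251, 1288 and 1434 with DPI + DNFB, against 72.2, 156 and 83.8 in non-treated cells (log2 fold change 3.55 ± 0.22, adjusted p = 1.47e-09). Nupr1, a stress-induced chromatin protein, had 2716, 2489 and 2687 with DPI + DNFB, against 376, 463 and 321 in non-treated cells (log2 fold change 2.73 ± 0.18, adjusted p = 3.73e-09). These 3 genes showed no overlap between the groups. Ppp1r15a had 3966, 3382 and 3783 with DPI + DNFB, against 409, 249 and 200 in non-treated cells.

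All 4 were also higher than with either compound by itself. Ddit3 was higher than with DPI by 1.98 ± 0.19 and than with DNFB by 1.71 ± 0.19 on the log2 scale (adjusted p = 2.85e-06 and 1.13e-06), with geometric means of 4102, 1030, 1240 and 412 in DPI + DNFB, DPI, DNFB and non-treated cells. Nupr1 was higher by 1.12 and 1.89, Ppp1r15a by 1.18 and 1.90, and Atf3 by 1.07 and 0.95. The combined value of Ddit3 differed from the sum of the single exposures on the log2 scale by 0.42 ± 0.27, which did not pass (interaction, adjusted p = 0.294), while that of Atf3 lay below it (-1.54 ± 0.31, adjusted p = 0.00121).

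Promoter windows of Atf3 and Ppp1r15a are shown as members of this list that rose together. The capitals mark the C/EBP-ATF core TGATGNAA in Atf3 (3.97% of windows) and the cAMP response element TGACGTCA in Ppp1r15a (1.79% of windows), each searched on both strands and free of overlap with the other motifs. Among the 18 that rose, 16 had a window, and 4 of those (Atf3, Nupr1, Slc1a4 and Trib3) held TGATGNAA, which 4.51% of genes hold in any window. Ppp1r15a is not among them, and how many of the 16 hold TGACGTCA was not counted. Of 22 immediate early genes that rose, 18 had a window, and Dusp1 and Maff held TGACGTCA (2.03% of genes in any window). The windows of Atf3 and Ppp1r15a lie at chr1:191183284-191183583, minus strand, and at chr7:45526219-45526518, minus strand.
Atf3: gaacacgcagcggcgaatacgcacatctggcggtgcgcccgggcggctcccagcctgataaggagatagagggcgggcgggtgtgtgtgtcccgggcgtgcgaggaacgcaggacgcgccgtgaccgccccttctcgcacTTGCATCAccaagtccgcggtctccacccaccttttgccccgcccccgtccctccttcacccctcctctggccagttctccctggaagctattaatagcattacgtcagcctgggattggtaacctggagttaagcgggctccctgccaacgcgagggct
Ppp1r15a: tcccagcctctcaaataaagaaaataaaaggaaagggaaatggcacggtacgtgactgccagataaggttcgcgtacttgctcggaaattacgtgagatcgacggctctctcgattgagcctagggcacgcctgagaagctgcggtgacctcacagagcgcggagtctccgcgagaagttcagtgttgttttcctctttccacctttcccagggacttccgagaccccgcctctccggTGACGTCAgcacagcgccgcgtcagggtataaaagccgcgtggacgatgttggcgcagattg

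For the unfolded protein response of the ER the shares were near those over all genes. All 24 members were tested; 4 rose (16.7%, against 14.5% of all genes), 5 fell (20.8%, against 18.1%) and 15 did not pass, and the median was -0.03. The falls numbered 2 without replicate 3 of DPI + DNFB, and 3 without replicate 1 or replicate 2 of the non-treated cells. Xbp1, the transcription factor that IRE1 splices, fell (3546, 5053 and 4007 with DPI + DNFB, against 8919, 11059 and 9368 in non-treated cells; log2 fold change -1.23 ± 0.17, adjusted p = 2.62e-05), with no overlap. The disulfide isomerase Pdia3 had 7671, 8662 and 3922 with DPI + DNFB, against 13717, 12030 and 10166 in non-treated cells (log2 fold change -0.89 ± 0.21, adjusted p = 0.00288), with replicate 3 well under the other DPI + DNFB arrays. Under the beta-actin covariate 1 member rose and none fell, and with arrays centred on their medians 1 rose and 10 fell.

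NRF2 and glutathione genes changed in both directions. Of 36 listed, 31 were on the array and 28 tested: 5 rose (17.9%, against 14.5% of all genes), 8 fell (28.6%, against 18.1%) and 15 did not pass, with a median of -0.25, and with the beta-actin ratio as a covariate 1 rose and 3 fell, with a median of 0.01. With arrays centred on their medians 2 rose and 14 fell, and without replicate 3 of the non-treated cells 5 rose and 5 fell. Srxn1, sulfiredoxin, which repairs over-oxidised peroxiredoxins, had 341, 367 and 383 with DPI + DNFB, against 1532, 1621 and 1457 in non-treated cells (log2 fold change -2.04 ± 0.13, adjusted p = 2.24e-09). Gclm, the regulatory subunit of the enzyme that starts glutathione synthesis, had 1643, 1452 and 1816 with DPI + DNFB, against 4556, 3585 and 4227 in non-treated cells (log2 fold change -1.32 ± 0.15, adjusted p = 2.24e-06). Txnrd1, the reductase of cytosolic thioredoxin, had 3812, 2944 and 3282 with DPI + DNFB, against 7201, 6503 and 6356 in non-treated cells (log2 fold change -1.0 ± 0.11, adjusted p = 2.55e-06). In each, every DPI + DNFB array was below every non-treated array. Glutathione reductase, Gsr, fell too (1025, 812 and 578 with DPI + DNFB, against 1478, 1506 and 1441 in non-treated cells; log2 fold change -0.90 ± 0.17, adjusted p = 0.000424).

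With DNFB by itself, Srxn1 and Gclm stood above non-treated cells instead. Srxn1 had a geometric mean of 363 with DPI + DNFB, 383 with DPI, 13937 with DNFB and 1535 in non-treated cells. Between DPI + DNFB and DNFB the difference was -5.21 ± 0.13 (adjusted p = 2.12e-15), and between DPI + DNFB and DPI it was -0.07 ± 0.13 (adjusted p = 0.736). Hmox1, which breaks down heme, had 1157, 889 and 403 with DPI + DNFB, against 1166, 1268 and 932 in non-treated cells; the groups overlap and it did not pass (log2 fold change -0.57 ± 0.28, adjusted p = 0.137), though without replicate 1 of DPI + DNFB it was -0.88 and passed. It was lower than with DNFB by 14.9-fold (log2 difference -3.89 ± 0.28, adjusted p = 5.42e-09). Over the whole list, 6 were higher and 19 lower than with DNFB (22.3% and 20.6% over all genes), and 4 higher and 7 lower than with DPI (13.2% each over all genes).

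The remaining members were mixed. The quinone reductase Nqo1 was dim (10.7, 79.1 and 11.6 with DPI + DNFB, against 81.0, 101 and 62.6 in non-treated cells; log2 fold change -1.25 ± 0.54, adjusted p = 0.0893), and the cystine transporter Slc7a11 had 196, 180 and 108 with DPI + DNFB, against 252, 164 and 194 in non-treated cells (log2 fold change -0.33 ± 0.26, adjusted p = 0.373); neither passed, though Nqo1 did without replicate 2 of DPI + DNFB (-1.87). Tkt, transketolase of the pentose phosphate route, rose (log2 fold change 0.68 ± 0.14, adjusted p = 0.00111). So did the iron store ferritin Fth1 (log2 fold change 0.45 ± 0.14, adjusted p = 0.0167) and thioredoxin Txn1 (log2 fold change 0.45 ± 0.11, adjusted p = 0.00381). Here quantile normalization turned Fth1 to -0.44 and Txn1 to -0.14, and cyclic loess turned Fth1 to -0.09. With the mean of their probe sets, Tkt (0.20) and Txn1 (0.17) did not pass. Fth1 also lost its call without replicate 3 of DPI + DNFB (0.36) and without replicate 2 of the non-treated cells (0.40). Fth1 and Txn1 are among the 100 genes of highest mean signal, whose median log2 fold change was 0.67.

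Windows of the 3 oxidant defence genes that fell most are shown with the antioxidant response element core TGACNNNGC in capitals, searched on both strands. It occurs in 12.4% of all windows, and 14% of genes hold it in any window. Of the 8 members that fell, 5 had a window and 3 of those held the core; of the 5 that rose, all had a window and that of Maff held it. For Txnrd1, 1 of 3 windows had a match. They lie at chr2:152105274-152105573, plus strand, at chr3:122245307-122245606, plus strand, and at chr10:82858956-82859255, plus strand, and none of the matches overlaps another motif searched.
Srxn1: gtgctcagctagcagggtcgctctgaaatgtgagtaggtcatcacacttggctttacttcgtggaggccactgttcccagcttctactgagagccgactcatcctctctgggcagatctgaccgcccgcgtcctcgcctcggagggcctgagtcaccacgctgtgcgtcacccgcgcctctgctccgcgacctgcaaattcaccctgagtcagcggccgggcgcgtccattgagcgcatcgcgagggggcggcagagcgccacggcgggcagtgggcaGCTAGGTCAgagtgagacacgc
Gclm: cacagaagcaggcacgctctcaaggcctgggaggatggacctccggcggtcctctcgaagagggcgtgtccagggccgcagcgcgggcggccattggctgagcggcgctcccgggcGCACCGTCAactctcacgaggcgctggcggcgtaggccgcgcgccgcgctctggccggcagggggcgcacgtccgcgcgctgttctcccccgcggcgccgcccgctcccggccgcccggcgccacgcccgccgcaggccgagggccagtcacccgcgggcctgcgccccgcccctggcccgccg
Txnrd1: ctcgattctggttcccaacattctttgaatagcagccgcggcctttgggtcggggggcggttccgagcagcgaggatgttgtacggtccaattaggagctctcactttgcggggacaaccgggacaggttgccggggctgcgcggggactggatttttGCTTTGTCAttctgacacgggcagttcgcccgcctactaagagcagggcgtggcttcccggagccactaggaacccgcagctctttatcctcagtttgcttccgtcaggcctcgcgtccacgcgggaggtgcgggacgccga

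NADPH oxidase, the flavoenzyme complex that DPI blocks, had 7 of its 13 listed genes tested, of which 2 rose (28.6%), 1 fell (14.3%) and 4 did not pass. Cyba, the membrane subunit p22phox, had 22939, 25537 and 29045 with DPI + DNFB, against 16949, 14748 and 14387 in non-treated cells (log2 fold change 0.75 ± 0.11, adjusted p = 7.44e-05). Ncf4 (p40phox), a regulatory subunit in the cytosol, had 8196, 9667 and 10334 with DPI + DNFB, against 12653, 12723 and 11931 in non-treated cells (log2 fold change -0.41 ± 0.10, adjusted p = 0.00416); the groups of both were apart. Ncf1 (p47phox), the organiser subunit, was higher by 0.49 ± 0.13 (adjusted p = 0.00702), but 1 of its 2 other probe sets was called lower, and the mean of its probe sets gave -0.12. The catalytic subunit Cybb had 144, 392 and 407 with DPI + DNFB, against 84.7, 135 and 172 in non-treated cells, with overlap, and did not pass (log2 fold change 1.10 ± 0.53, adjusted p = 0.129); without replicate 1 of DPI + DNFB it was 1.56 and passed.

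Among 19 other antioxidant genes tested, 7 rose (36.8%), 3 fell (15.8%) and 9 did not pass, with a median of 0.09 that turned to -0.16 when arrays were centred on their medians. Selenoprotein W, Selenow, had 18414, 14401 and 21013 with DPI + DNFB, against 7028, 5858 and 5246 in non-treated cells (log2 fold change 1.56 ± 0.14, adjusted p = 2.71e-07). Glutaredoxin Glrx had 657, 591 and 509 with DPI + DNFB, against 391, 291 and 248 in non-treated cells (log2 fold change 0.90 ± 0.18, adjusted p = 0.000692), and Sod1, cytosolic superoxide dismutase, rose less (log2 fold change 0.82 ± 0.19, adjusted p = 0.00235). Catalase, Cat, fell (1270, 1466 and 1217 with DPI + DNFB, against 2092, 2557 and 2339 in non-treated cells; log2 fold change -0.81 ± 0.13, adjusted p = 0.000127), and so did Sesn3 (log2 fold change -0.87 ± 0.15, adjusted p = 0.000249) and the metal-binding Mt2 (log2 fold change -0.68 ± 0.12, adjusted p = 0.000352). All 6 were free of overlap. Glrx was nevertheless lower than with DPI (-1.24 ± 0.18, adjusted p = 8.26e-05) and than with DNFB (-1.05 ± 0.18, adjusted p = 0.000102).

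Cytokine, chemokine and NF-kB genes rose more often than they fell. Of 40 listed, 35 were tested: 17 rose, 2 fell and 16 did not pass, with a median of 0.63, and 9 rose with the beta-actin ratio as a covariate, where the median was 0.62. Ccl3 had 3231, 3096 and 2926 with DPI + DNFB, against 284, 126 and 108 in non-treated cells (log2 fold change 4.16 ± 0.26, adjusted p = 1.97e-09). Cxcl2, which draws neutrophils, had 1822, 2053 and 2822 with DPI + DNFB, against 287, 220 and 153 in non-treated cells (log2 fold change 3.28 ± 0.20, adjusted p = 9.79e-10). The pyrogenic cytokine Il1b had 1027, 980 and 949 with DPI + DNFB, against 258, 230 and 265 in non-treated cells (log2 fold change 1.91 ± 0.23, adjusted p = 5.52e-06). The groups did not overlap in Cxcl2 or Il1b. Ccl4, a sister chemokine of Ccl3, rose as well (log2 fold change 2.07 ± 0.22, adjusted p = 1.32e-06).

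Set against the single exposures, Ccl3 was higher than with DNFB by 1.70 ± 0.26 (adjusted p = 4.22e-05), whereas Cxcl2 and Il1b differed from DNFB by 0.03 ± 0.20 and 0.00 ± 0.23, which did not pass (adjusted p = 0.918 and 0.993). Both were higher than with DPI, by 1.17 and 1.02 (adjusted p = 0.000347 and 0.0034). The 2 falls were of Csf1 and Nfkbie. Csf1, the growth factor of macrophages, had 611, 1120 and 898 with DPI + DNFB, against 3270, 4404 and 4005 in non-treated cells (log2 fold change -2.16 ± 0.19, adjusted p = 1.42e-07). Nfkbie, an inhibitor that holds NF-kB in the cytosol, had 211, 281 and 462 with DPI + DNFB, against 696, 1019 and 766 in non-treated cells (log2 fold change -1.39 ± 0.26, adjusted p = 0.000415), and was 9.57-fold lower than with DNFB (adjusted p = 1.63e-08).

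For maturation genes the shares were near those over all genes. Of 22 tested, 4 rose (18.2%, against 14.5% of all genes), 4 fell (18.2%, against 18.1%) and 14 did not pass, and the median of 0.22 turned to -0.03 with arrays centred on their medians. Cd83, a surface marker of mature dendritic cells, had 1742, 1618 and 1887 with DPI + DNFB, against 624, 584 and 423 in non-treated cells (log2 fold change 1.68 ± 0.13, adjusted p = 4.72e-08). The beta-glucan receptor Clec7a (log2 fold change 1.18 ± 0.18, adjusted p = 7.33e-05), the inhibitory ligand Cd274 (PD-L1, log2 fold change 0.96 ± 0.22, adjusted p = 0.00297) and the adhesion molecule Icam1 (log2 fold change 0.78 ± 0.15, adjusted p = 0.000572) rose. Tlr4, the receptor for bacterial lipopolysaccharide, had 128, 254 and 85.3 with DPI + DNFB, against 683, 905 and 703 in non-treated cells (log2 fold change -2.30 ± 0.29, adjusted p = 1.06e-05). Cd44, which binds hyaluronan, fell as well (log2 fold change -0.70 ± 0.15, adjusted p = 0.0014). Ccr1 and Cd86 were the other 2 falls.

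The costimulatory molecules themselves showed small differences. Cd80 had 484, 599 and 560 with DPI + DNFB, against 424, 463 and 417 in non-treated cells (log2 fold change 0.32 ± 0.16, adjusted p = 0.143). Cd40 had 1241, 1245 and 1373 with DPI + DNFB, against 1182, 997 and 968 in non-treated cells (log2 fold change 0.29 ± 0.14, adjusted p = 0.126). Both had groups that did not overlap, yet neither passed. Cd86 fell by a small step with overlapping groups (2010, 1693 and 2496 with DPI + DNFB, against 2397, 3482 and 2742 in non-treated cells; log2 fold change -0.47 ± 0.16, adjusted p = 0.0334), and its call was lost in 4 of the 6 fits without 1 array, where it lay between -0.33 and -0.50. Cd80 was 4.77-fold lower than with DNFB (log2 difference -2.25 ± 0.16, adjusted p = 4.86e-09), Cd86 2.05-fold lower (adjusted p = 4.57e-05) and Cd83 1.69-fold lower (adjusted p = 0.000172).

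In the class II presentation list, 6 of 17 rose (35.3%), 3 fell (17.6%, against 18.1% of all genes) and 8 did not pass. The median of 0.16 was -0.05 under quantile normalization and -0.09 with arrays centred on their medians, where 1 rose and 4 fell. The rises numbered 3 without replicate 3 of DPI + DNFB or of the non-treated cells. The invariant chain Cd74 had 50960, 46603 and 54250 with DPI + DNFB, against 31727, 28072 and 24862 in non-treated cells (log2 fold change 0.85 ± 0.13, adjusted p = 0.000103). The peptide exchanger H2-DMa (log2 fold change 0.49 ± 0.13, adjusted p = 0.00781) and the protease Ctsl (log2 fold change 0.69 ± 0.16, adjusted p = 0.00262) were higher. Ciita, the coactivator that switches on class II genes, had 319, 328 and 303 with DPI + DNFB, against 797, 715 and 793 in non-treated cells (log2 fold change -1.24 ± 0.19, adjusted p = 8.99e-05). Rfx5, which binds their promoters, had 472, 493 and 406 with DPI + DNFB, against 844, 1034 and 945 in non-treated cells (log2 fold change -1.02 ± 0.18, adjusted p = 0.000339). For these 2 regulators all DPI + DNFB arrays were below all non-treated arrays. Of 14 class I and immunoproteasome genes, 5 rose (35.7%), 1 fell (7.1%) and 8 did not pass, and after that centring 0 rose and 2 fell. Without replicate 2 or replicate 3 of the non-treated cells 3 rose. Psmb9 was higher (log2 fold change 0.52 ± 0.11, adjusted p = 0.00181), while the value of the class I light chain B2m (log2 fold change 0.56 ± 0.11, adjusted p = 0.0007) turned to -0.24 under quantile normalization.

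Interferon response genes rose in 13 of 33 cases, 2 fell and 18 did not pass, with a median of 0.65. Under the beta-actin covariate 6 rose and the median was 1.25, and with arrays centred on their medians 7 rose and 3 fell. Without replicate 1 of DPI + DNFB 8 rose, without its replicate 2 also 8, with a median of 0.42, and without replicate 3 of the non-treated cells 6. Oas2, a sensor of double-stranded RNA that activates RNase L, had 2467, 2045 and 1553 with DPI + DNFB, against 626, 597 and 387 in non-treated cells (log2 fold change 1.89 ± 0.27, adjusted p = 3.33e-05). Oas1a had 7841, 8595 and 5355 with DPI + DNFB, against 2788, 3184 and 1840 in non-treated cells (log2 fold change 1.48 ± 0.28, adjusted p = 0.000494). The GTPases Ifi47 (log2 fold change -0.94 ± 0.19, adjusted p = 0.00102) and Irgm1 (log2 fold change -0.75 ± 0.16, adjusted p = 0.00119), which respond to interferon gamma in mouse cells, were lower. No group overlapped with the other in these 4. Against DNFB, 23 of the 33 were higher and none was lower, beside 22.3% higher and 20.6% lower over all genes.

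Cell cycle genes showed small differences from non-treated cells. Of 36 mitosis genes, 10 rose (27.8%, against 14.5% of all genes), 1 fell (2.8%, against 18.1%) and 25 did not pass (median 0.19). Of 41 replication genes 6 rose (14.6%, against 14.5% of all genes), 2 fell (4.9%, against 18.1%) and 33 did not pass (median 0.11). The rises in replication genes numbered 2 without replicate 3 of DPI + DNFB, and 3 without replicate 1 or replicate 2 of the non-treated cells. With arrays centred on their medians, 5 mitosis genes rose and 4 fell with a median of -0.06, and 0 and 4 replication genes with -0.14. Cdc20, which activates the anaphase promoting complex, had 12549, 10541 and 14648 with DPI + DNFB, against 5066, 6488 and 6337 in non-treated cells (log2 fold change 1.07 ± 0.14, adjusted p = 1.44e-05). Cdca8, of the chromosomal passenger complex, rose too (log2 fold change 0.98 ± 0.11, adjusted p = 2.19e-06), as did the cyclin Ccnb2 (log2 fold change 0.82 ± 0.15, adjusted p = 0.000355). The kinase Aurkb was lower (log2 fold change -0.90 ± 0.23, adjusted p = 0.00547). The proliferation antigen Mki67 had 6134, 6006 and 6467 with DPI + DNFB, against 4754, 4489 and 4702 in non-treated cells (log2 fold change 0.41 ± 0.11, adjusted p = 0.00982). Topoisomerase Top2a had 6579, 6131 and 5202 with DPI + DNFB, against 6582, 5507 and 5296 in non-treated cells, with overlap (log2 fold change 0.04 ± 0.15, adjusted p = 0.864).

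In the replication list the helicase subunits Mcm5 (log2 fold change 0.55 ± 0.11, adjusted p = 0.00117) and Mcm7 (log2 fold change 0.46 ± 0.10, adjusted p = 0.00159) were higher, and the repressor E2f8 (log2 fold change -1.0 ± 0.20, adjusted p = 0.000755) and the clamp loader subunit Rfc3 (log2 fold change -0.97 ± 0.17, adjusted p = 0.000223) lower. Ribonucleotide reductase Rrm2 did not pass (4664, 4391 and 5763 with DPI + DNFB, against 4526, 4020 and 5116 in non-treated cells; log2 fold change 0.11 ± 0.13, adjusted p = 0.537). The contrast with DNFB by itself was wide: 34 of 36 mitosis genes and 34 of 41 replication genes were higher with DPI + DNFB, and 1 and none lower. Over all genes, 22.3% were higher and 20.6% lower than with DNFB. Mki67 was 2.84-fold higher than with DNFB (adjusted p = 1.12e-08) and 1.97-fold higher than with DPI (adjusted p = 1.38e-05). Rrm2 was 4.92-fold higher than with DNFB (adjusted p = 2.26e-10). Myb, a transcription factor of dividing blood progenitors, did not pass (log2 fold change -0.68 ± 0.37, adjusted p = 0.184). It stood at 127 with DPI + DNFB, against 9.08 with DNFB, which is under the pseudocount.

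**Figure D4:**
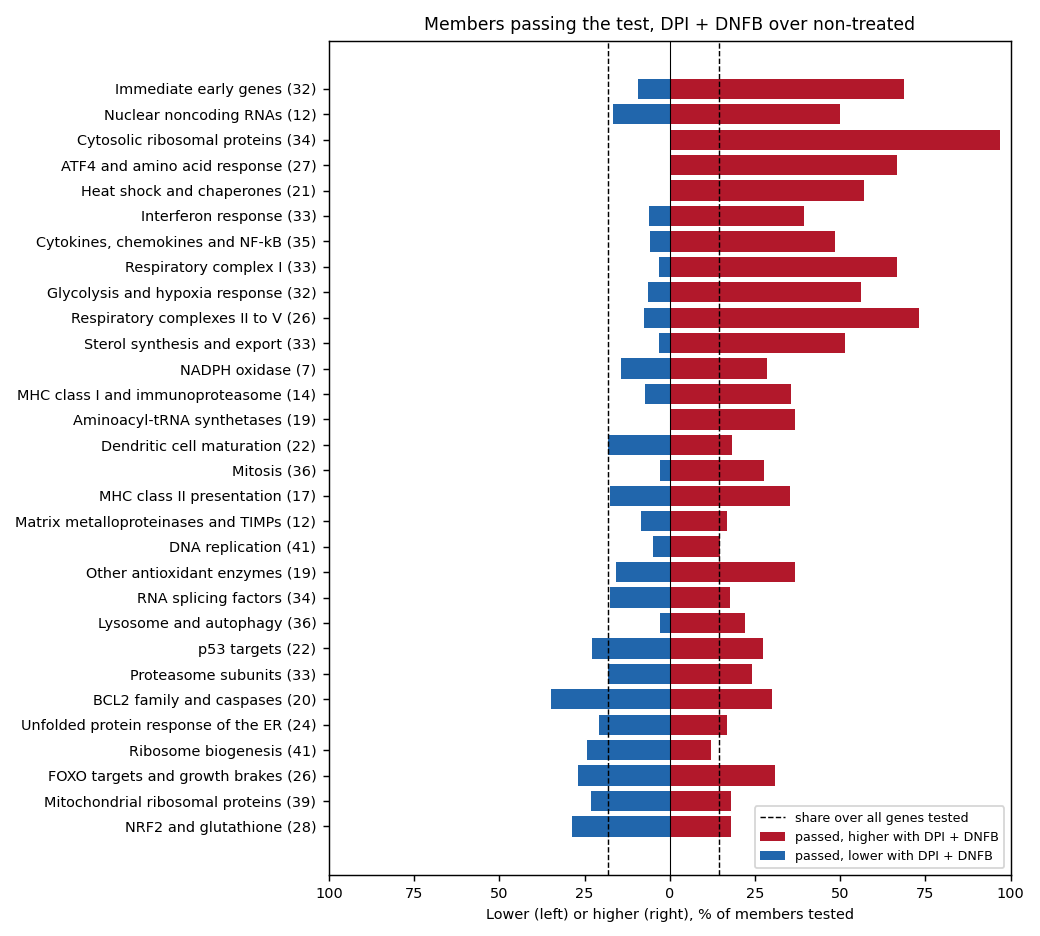
Share of the tested members of each gene list that passed the limma test at an adjusted p of 0.05, lower with DPI + DNFB to the left and higher to the right; lists are ordered by median log2 fold change and carry the number tested. Dashed lines mark the shares over all genes (18.1% lower and 14.5% higher); cytosolic ribosomal proteins reach 97.1% higher, and NRF2 and glutathione genes stand lowest.

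Genes of stress-linked cell cycle arrest and death changed in both directions. Of 22 tested p53 targets, 6 rose (27.3%) and 5 fell (22.7%), or 5 and 8 with arrays centred on their medians. Without replicate 1 of DPI + DNFB or replicate 2 of the non-treated cells 3 fell. The cell cycle inhibitor Cdkn1a (p21) had 2238, 2264 and 2134 with DPI + DNFB, against 1337, 1318 and 958 in non-treated cells (log2 fold change 0.88 ± 0.14, adjusted p = 7e-05), and it was 3.25-fold lower than with DNFB (adjusted p = 1.92e-08). Pmaip1 (NOXA), which antagonises MCL1, had 12682, 13366 and 8147 with DPI + DNFB, against 4905, 3916 and 3980 in non-treated cells (log2 fold change 1.39 ± 0.16, adjusted p = 3.46e-06). Plk2, with 725, 1028 and 579 with DPI + DNFB, against 56.4, 96.9 and 9.21 in non-treated cells, rose, and so did Plk3 (log2 fold change 2.40 ± 0.25, adjusted p = 1.41e-06) and the atypical cyclin Ccng2 (log2 fold change 1.07 ± 0.11, adjusted p = 7.09e-07). Zmat3 (log2 fold change -1.05 ± 0.16, adjusted p = 8.98e-05) and Trp53inp1 (log2 fold change -0.96 ± 0.21, adjusted p = 0.00177) fell. Several of those that rose are also targets of other stress pathways, and Trp53 itself had no probe set with a single gene name.

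In the BCL2 and caspase list 6 of 20 rose (30%) and 7 fell (35%), or 4 and 9 with arrays centred on their medians. Without replicate 3 of DPI + DNFB 4 fell. Bcl2l11 (BIM), which triggers death when growth signals stop, had 6533, 5168 and 5233 with DPI + DNFB, against 1680, 1768 and 1476 in non-treated cells (log2 fold change 1.77 ± 0.14, adjusted p = 3.23e-08); 2 of its 4 other probe sets had the same call and 1 the opposite. Bnip3, a mitophagy receptor that hypoxia induces, rose (9184, 8516 and 6177 with DPI + DNFB, against 4014, 3414 and 1813 in non-treated cells; log2 fold change 1.42 ± 0.23, adjusted p = 0.000104). Bmf, another death activator of that family, fell (457, 402 and 469 with DPI + DNFB, against 1489, 1787 and 1686 in non-treated cells; log2 fold change -1.87 ± 0.18, adjusted p = 3.8e-07), as did the inflammatory caspase Casp1 (log2 fold change -0.88 ± 0.13, adjusted p = 6.96e-05). All arrays of the DPI + DNFB group lay on the same side of the non-treated arrays in these 4.

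Among 26 FOXO targets and growth brakes, 8 rose (30.8%) and 7 fell (26.9%), or 5 and 9 with arrays centred on their medians. Sgk1, a kinase of the AKT family that glucocorticoids and cell stress induce, had 1094, 1163 and 1001 with DPI + DNFB, against 67.7, 98.6 and 48.7 in non-treated cells (log2 fold change 3.70 ± 0.23, adjusted p = 1.97e-09). The insulin receptor substrate Irs2 rose (log2 fold change 1.13 ± 0.19, adjusted p = 0.000158). Txnip, which binds thioredoxin and limits glucose uptake, had 2192, 2829 and 2443 with DPI + DNFB, against 8644, 9177 and 6991 in non-treated cells (log2 fold change -1.73 ± 0.14, adjusted p = 6.3e-08). The repressor Bcl6 had 457, 591 and 589 with DPI + DNFB, against 1173, 1549 and 1385 in non-treated cells (log2 fold change -1.31 ± 0.15, adjusted p = 2.66e-06). For Txnip and Bcl6 the groups were apart.

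Metabolic genes that passed mostly rose. Of 33 sterol and lipid genes tested, 17 rose and 1 fell (median 0.41). With the beta-actin covariate 3 rose, at a median of 0.33. With arrays centred on their medians 10 rose and 1 fell, at a median of 0.16. Dhcr7, the last step to cholesterol, had 1058, 987 and 1184 with DPI + DNFB, against 424, 585 and 415 in non-treated cells (log2 fold change 1.17 ± 0.18, adjusted p = 5.73e-05). Mvk (log2 fold change 1.45 ± 0.36, adjusted p = 0.00513), Insig1 (log2 fold change 1.0 ± 0.15, adjusted p = 6.33e-05) and Idi1 (log2 fold change 1.0 ± 0.15, adjusted p = 6.47e-05) rose. Of 32 glycolysis and hypoxia genes 18 rose and 2 fell (median 0.54). With the covariate 5 rose, at a median of 0.46, and with that centring 11 rose and 3 fell, at a median of 0.29. Ndrg1, a hypoxia-induced protein, had 11615, 10521 and 10483 with DPI + DNFB, against 2898, 3478 and 2101 in non-treated cells (log2 fold change 1.97 ± 0.14, adjusted p = 1.01e-08). The vasodilator peptide Adm (log2 fold change 1.71 ± 0.30, adjusted p = 0.00027) and the phosphofructokinase Pfkl (log2 fold change 1.48 ± 0.26, adjusted p = 0.000225) were higher. Hexokinase Hk2 fell (1979, 1940 and 2049 with DPI + DNFB, against 3454, 3012 and 2382 in non-treated cells; log2 fold change -0.55 ± 0.15, adjusted p = 0.00879), a call that was lost without replicate 1 of the non-treated cells (-0.43).

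Respiratory chain genes that passed mostly rose too. In complex I, the flavoenzyme at the chain's entry, 22 of 33 rose and 1 fell (median 0.58), with 10 rising under the beta-actin covariate, at a median of 0.48. With arrays centred on their medians 13 rose and 4 fell, at a median of 0.32. Ndufs7, a subunit with an iron-sulfur centre, had 7705, 6830 and 9595 with DPI + DNFB, against 3215, 3711 and 3313 in non-treated cells (log2 fold change 1.22 ± 0.13, adjusted p = 2.1e-06). Ndufv3 (log2 fold change 1.23 ± 0.14, adjusted p = 3.44e-06) and Ndufa2 (log2 fold change 1.21 ± 0.12, adjusted p = 7.93e-07) were alike, while Ndufa9 was lower (log2 fold change -0.36 ± 0.10, adjusted p = 0.0132). In complexes II to V, 19 of 26 rose and 2 fell (median 0.51), but 10 rose under quantile normalization with a median of 0.18, and 3 under the covariate with 0.38. With that centring 12 rose and 2 fell, at a median of 0.26. Cox6b1 had 33755, 28515 and 42574 with DPI + DNFB, against 16675, 15807 and 15666 in non-treated cells (log2 fold change 1.10 ± 0.12, adjusted p = 2.45e-06), and Uqcr11 was higher (log2 fold change 1.06 ± 0.14, adjusted p = 1.26e-05).

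Cytosolic ribosomal proteins moved almost as a block, and this block depended on the normalization. Of 52 listed, 35 were on the array and 34 tested; 33 rose and none fell, with a median of 0.88. Under quantile normalization 10 rose and 2 fell with a median of 0.08, under cyclic loess 25 rose with 0.44, and with the beta-actin covariate 7 rose with 0.51. Rps19 had 65348, 53459 and 71368 with DPI + DNFB, against 28998, 24280 and 26728 in non-treated cells (log2 fold change 1.24 ± 0.14, adjusted p = 2.24e-06). Rps15 had 57746, 45765 and 67585 with DPI + DNFB, against 25377, 23641 and 23309 in non-treated cells. Rpl35 had 81223, 74706 and 103750 with DPI + DNFB, against 36260, 38857 and 37110 in non-treated cells. Replicate 2, with the lowest 3'/5' ratio of its group, was the lowest of the DPI + DNFB arrays for each of these, though still above every non-treated array. Ribosomal protein genes have many processed copies in the mouse genome, whose transcripts could share probes.

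Other parts of the translation machinery were mixed. Of 39 mitochondrial ribosomal proteins 7 rose (18%, against 14.5% of all genes) and 9 fell (23.1%, against 18.1%), with a median of -0.20. Mrpl13 was higher (log2 fold change 0.84 ± 0.13, adjusted p = 6.12e-05) and Mrps2 lower (log2 fold change -1.0 ± 0.11, adjusted p = 2.45e-06). With arrays centred on their medians 1 rose and 21 fell. The rises numbered 4 without replicate 3 of DPI + DNFB. Of 41 ribosome biogenesis genes 5 rose (12.2%) and 10 fell (24.4%), with a median of -0.05, or 2 and 17 (median -0.30) with that centring. Without replicate 1 of DPI + DNFB, and without replicate 1 or replicate 2 of the non-treated cells, 3 rose. Nop56 of the box C/D particles had 6714, 5898 and 8934 with DPI + DNFB, against 4060, 3982 and 4653 in non-treated cells (log2 fold change 0.74 ± 0.12, adjusted p = 0.000174). Rrs1 had 2028, 2612 and 2536 with DPI + DNFB, against 4379, 4601 and 5726 in non-treated cells (log2 fold change -1.03 ± 0.14, adjusted p = 2.44e-05); the helicase Ddx21 was lower (log2 fold change -0.84 ± 0.17, adjusted p = 0.000809). Of 19 aminoacyl-tRNA synthetases 7 rose and none fell, among them Vars (log2 fold change 1.20 ± 0.18, adjusted p = 4.71e-05) and Aars (log2 fold change 0.94 ± 0.13, adjusted p = 2.58e-05), with 2 higher and 1 lower after median centring.

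Protein breakdown and matrix genes were mixed too. Of 33 proteasome subunits 8 rose (24.2%, against 14.5% of all genes) and 6 fell (18.2%, against 18.1%), which became 3 and 12 with arrays centred on their medians. Without replicate 3 of DPI + DNFB 4 rose, and without replicate 1 of the non-treated cells 5 rose. Of 36 lysosome and autophagy genes 8 rose (22.2%) and 1 fell (2.8%), or 3 and 5 after that centring. The sterol carrier Npc2 (log2 fold change 0.77 ± 0.11, adjusted p = 2.53e-05) and alpha-galactosidase Gla (log2 fold change 1.03 ± 0.21, adjusted p = 0.000841) were higher. Of 12 matrix metalloproteinases and related genes tested, 2 rose (16.7%, against 14.5% of all genes) and 1 fell (8.3%, against 18.1%), or 1 and 2 after centring. Mmp10 was higher (150, 107 and 200 with DPI + DNFB, against 41.6, 95.9 and 14.2 in non-treated cells; log2 fold change 1.52 ± 0.42, adjusted p = 0.00939), though 6.96-fold lower than with DNFB (adjusted p = 2.68e-05) and not past the threshold without replicate 3 of the non-treated cells (1.04). The surface protease Adam8 fell (850, 1273 and 1190 with DPI + DNFB, against 2686, 3342 and 2198 in non-treated cells; log2 fold change -1.30 ± 0.17, adjusted p = 1.37e-05).

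Nuclear noncoding RNAs gave some of the clearest single differences. All 12 on the array were tested; 6 rose, 2 fell and 4 did not pass, with a median of 0.95, and 6 also rose under each of the 3'/5' covariates. Snhg1, a host transcript of small nucleolar RNAs that translating ribosomes send to decay, had 22146, 24424 and 26772 with DPI + DNFB, against 3974, 4856 and 5199 in non-treated cells (log2 fold change 2.39 ± 0.12, adjusted p = 2.99e-10). Snhg8 (17540, 18089 and 19333 with DPI + DNFB, against 6807, 6888 and 7093 in non-treated cells; log2 fold change 1.40 ± 0.10, adjusted p = 5.14e-09) and Snhg12 (log2 fold change 1.44 ± 0.17, adjusted p = 3.59e-06) are host transcripts as well. Malat1 of the nuclear speckles had 4436, 5396 and 5563 with DPI + DNFB, against 1322, 1502 and 2323 in non-treated cells (log2 fold change 1.61 ± 0.17, adjusted p = 1.24e-06). Neat1, the scaffold of paraspeckles, fell (43.5, 288 and 220 with DPI + DNFB, against 1263, 1159 and 1150 in non-treated cells; log2 fold change -2.90 ± 0.45, adjusted p = 8.04e-05), and its replicate 1 was lower than the other DPI + DNFB arrays. The only other tested probe set of Neat1 had the opposite sign and did not pass, and the mean of both gave -1.37.

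Snhg1 was higher than with DPI by 0.91 ± 0.12 and than with DNFB by 1.89 ± 0.12 (adjusted p = 5.28e-05 and 1.52e-09). Neat1 was lower than with DNFB by 9.57-fold (adjusted p = 1.22e-05) and higher than with DPI by 2.93-fold (adjusted p = 0.0177). Of 34 splicing factors 6 rose and 6 fell (17.6% each way, against 14.5% higher and 18.1% lower over all genes), or 3 and 13 with arrays centred on their medians. Srsf1 was lower (9617, 9604 and 9866 with DPI + DNFB, against 17713, 16211 and 15893 in non-treated cells, log2 fold change -0.77 ± 0.12, adjusted p = 9.68e-05). Son, a speckle protein, was higher on its brightest probe set (log2 fold change 1.47 ± 0.12, adjusted p = 5.46e-08) while 3 of its 6 other probe sets were called lower, and the mean of its probe sets gave -0.41, so its direction is not settled. Over all genes with more than 1 tested probe set (5672 genes), 204 had probe sets called in opposite directions.

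**Figure D5:**
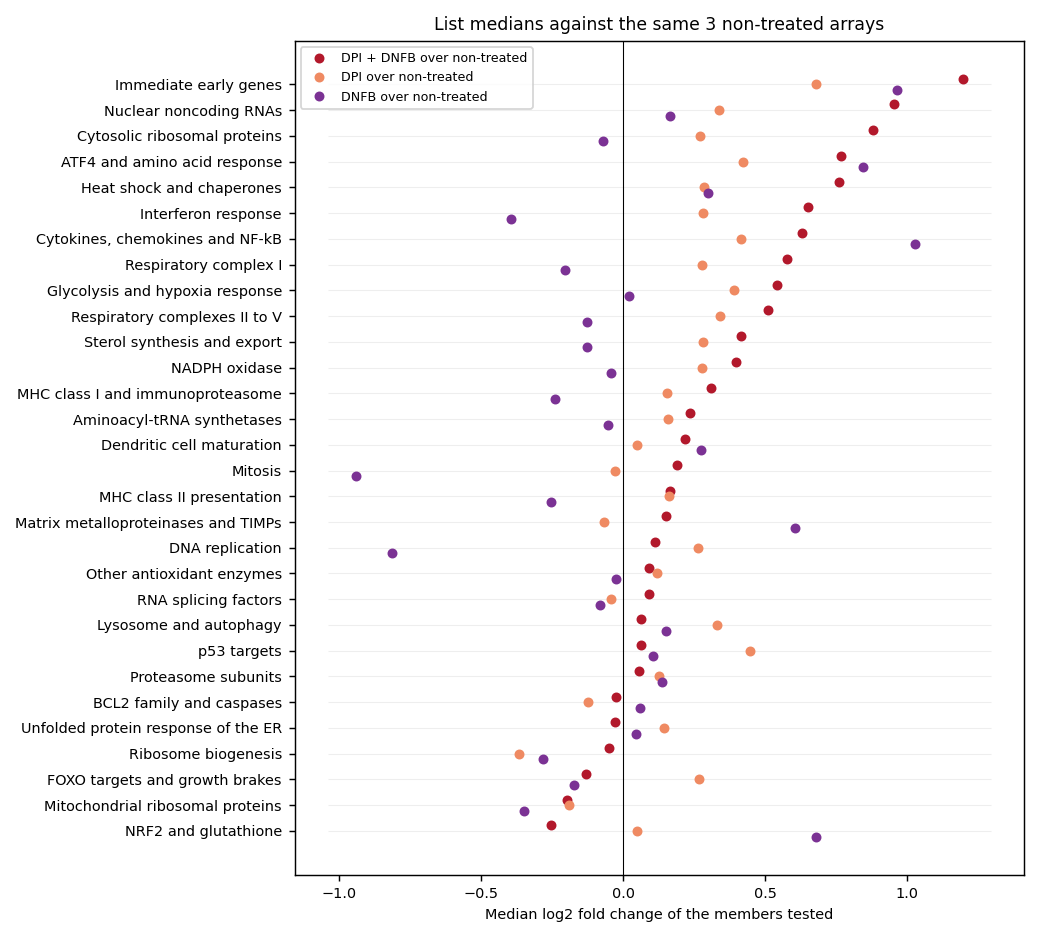
Median log2 fold change of the tested members of each list against the same 3 non-treated arrays, for DPI + DNFB, DPI and DNFB. Because the 3 sets share those arrays, only each set's own values are read: mitosis genes have medians of 0.19, -0.03 and -0.94, and NRF2 and glutathione genes -0.25, 0.05 and 0.68, in that order of groups.

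The 3'/5' ratios moved with the groups, so the single genes were also read with the beta-actin ratio as a covariate, which has only the 15 arrays to separate it from the exposure. Of the 163 genes named in the text, 154 passed the test against non-treated cells and 84 still did with the covariate. Besides those given with the largest falls and those taken up next, the genes above that lost their call were Tkt, Fth1, Txn1, Gsr, Ncf1, Ncf4, Sod1, Cat, Mt2, Xbp1, Pdia3, Mcl1, Clec7a, Cd274, Icam1, Tlr4, Cd44, Cd74, H2-DMa, Rfx5, B2m, Ifi47, Irgm1, Cdc20, Aurkb, Mcm5, Mcm7, E2f8, Rfc3, Trp53inp1, Casp1, Irs2, Mvk, Dhcr7, Insig1, Idi1, Adm, Pfkl, Hk2, Ndufa9, Uqcr11, Nop56, Ddx21, Vars, Mmp10, Mki67, Klf2, Tmem119, Amz1 and Procr. All 70 genes whose call was lost had the same sign with the covariate, and their median absolute log2 fold change was 0.74 with it and 1.0 without it, while their median standard error was 0.32 with it and 0.18 without it.

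Of the 8 genes taken as higher with DPI + DNFB than in non-treated cells, than with DPI and than with DNFB, Hspa1b and Ddit3 were described above, and the other 6 follow. Nrxn3, a neuronal adhesion gene, had 739, 197 and 381 with DPI + DNFB, against 51.8, 44.9 and 57.3 in non-treated cells, and its log2 differences were 2.59, 2.30 and 2.32 against non-treated, DPI and DNFB. Ltf, the iron-binding lactoferrin, had 200, 215 and 306 with DPI + DNFB, against 7.78, 79.2 and 44.8 in non-treated cells. The noncoding Lncpint had 418, 449 and 532 with DPI + DNFB, against 104, 113 and 185 in non-treated cells. Spaca4, named for the sperm acrosome, was higher by 2.42, or by 1.72 and not past the threshold without replicate 2 of the non-treated cells. Mlxipl, a glucose-responsive transcription factor, was higher by 1.94, or by 1.64 and not past the threshold without replicate 1 of DPI + DNFB, and Wbp2nl by 2.12. None of these 6 passed with the beta-actin ratio as a covariate, and Hspa1b and Ddit3 did, at 6.20 and 3.20.

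In the 8 taken as lower in the same way, Dcun1d1, which helps attach NEDD8 to cullins, had 182, 188 and 86.2 with DPI + DNFB, against 511, 508 and 592 in non-treated cells (log2 fold change -1.79 ± 0.22, adjusted p = 8.99e-06) and was also lower than with DPI (log2 difference -1.66 ± 0.22) and than with DNFB (-2.08 ± 0.22). The zinc finger genes Zfp52 (226, 321 and 171 with DPI + DNFB, against 693, 990 and 810 in non-treated cells; log2 fold change -1.76 ± 0.20, adjusted p = 3.72e-06) and Zfp282 (log2 fold change -2.12 ± 0.34, adjusted p = 0.000106) were alike. Nck1, Oxsm, Tut1, Ube2cbp and Gpatch3 complete this set. These 5 each had their highest DPI + DNFB reading on replicate 2: Nck1 had 29.6, 255 and 85.3, Ube2cbp 17.3, 302 and 114 and Gpatch3 36.9, 163 and 8.94. With the beta-actin ratio as a covariate, Dcun1d1 and Zfp52 still passed (-1.36 and -1.29) and the other 6 did not.

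The interaction asks whether DNFB changed a gene in the presence of DPI as much as in its absence; 2043 genes had a positive value (16.1%) and 1654 a negative one (13%). Among genes that also passed against non-treated cells, 5 of the 6 largest positive values belonged to genes whose level was below that of non-treated cells with each compound by itself. Tmem119 had a geometric mean of 1325 with DPI + DNFB, 523 with DPI, 270 with DNFB and 2040 in non-treated cells (interaction 4.16 ± 0.26, adjusted p = 5.51e-09). The metalloprotease Amz1 had 1807, 869, 744 and 3042 in the same order (interaction 3.05 ± 0.25, adjusted p = 7.68e-08). Both compounds together thus left these genes lower than in non-treated cells but less so than either by itself: Tmem119 was -0.62 and Amz1 -0.75 on the log2 scale against non-treated cells. The call of Tmem119 against non-treated cells was lost without replicate 2 of DPI + DNFB (-0.54) and without replicate 1 of the non-treated cells (-0.49).

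Among genes with a negative interaction, Procr, Traf1, Sgk1 and Abtb2 are described here, and they do not stand for all. Atf3, given above, also had a negative value (-1.54 ± 0.31), though it was higher with DPI + DNFB than with either compound by itself. Procr, the endothelial protein C receptor, had a geometric mean of 478 with DPI + DNFB, 780 with DPI, 9392 with DNFB and 656 in non-treated cells (interaction -4.50 ± 0.18, adjusted p = 1.45e-11), so the level was high with DNFB and not with DPI + DNFB. Its call against non-treated cells was lost without replicate 1 of DPI + DNFB (-0.38). Traf1, an adaptor of TNF receptors, was similar (-5.44 ± 0.45), although its other probe set was called the opposite way against non-treated cells. Sgk1 was high in all 3 exposures (1084, 1638 and 919 with DPI + DNFB, DPI and DNFB, against 69.3 in non-treated cells; interaction -4.06 ± 0.33, adjusted p = 8.73e-08), and Abtb2 likewise (-4.01 ± 0.25). Sgk1 differed from DPI by -0.59 ± 0.23 and from DNFB by 0.24 ± 0.23, neither of which passed (adjusted p = 0.0771 and 0.46).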

How the data were processed

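RNA was measured on 15 Affymetrix mouse arrays. Per the labels' protocols, RNA was taken with TRIzol and RNeasy Plus columns and turned into biotin-labelled cRNA with the 3' IVT Express kit. The deposited values are linear intensity values, 1 signal per probe set, made with MAS5 in Affymetrix Expression Console per the submitters' processing notes. Their 2% trimmed mean is 250 on 6 arrays and 500 on 9, so every array was rescaled to 500. Each array is thus scaled as a whole by a mean that leaves out its brightest and dimmest 2% of probe sets. A shift in many bright transcripts under that cut therefore moves all others. No depth exists for arrays, and their number limits the precision: the median SE of a log2 fold change was 0.247.

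Values were taken as log2(signal + 15), which understates folds of dim genes. Probe sets with a mean under the 40th percentile were left out, which kept 27022 of 45037. limma 3.58.1 in R 4.3.3 fitted all 15 arrays in 1 group-means model (10 residual degrees of freedom, trended moderation), and p-values were Benjamini-Hochberg adjusted over all kept probe sets. Every adjusted p in the text is limma's, a gene or interaction passed at an adjusted p under 0.05, and ± beside a log2 value is its SE. Interactions and all comparisons between exposures come from the same fit, in which all groups share 1 spread. Arrays within the DPI + DNFB group correlated at 0.946 to 0.949 over genes, against 0.962 to 0.973 within the other groups. The shared SE may therefore understate the spread of the DPI + DNFB arrays. A gene is shown by its kept probe set with the highest mean. The platform table gave 34945 probe sets 1 symbol, 932 several and 9160 none, and 34741 were updated through gene IDs (204 kept the old name). Figures were drawn with matplotlib 3.10.9, and tables were made with Python 3.11.15, pandas 2.3.3, numpy 2.4.6 and scipy 1.17.1. The fit was tested on simulated data.

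Genes named are the 12 largest rises and falls without overlap and with a mean signal of at least 200 in the higher group, up to 4 a direction from each list, a list of oxidant response, maturation, cytokine, stress, cell cycle and other genes whatever their values, up to 8 a direction that differed from non-treated cells and both single exposures, and the 6 largest interactions a direction. The rule may name genes that the text leaves out. The members and lists were chosen with earlier results of these data known. Same-numbered arrays were not treated as pairs. Other scalings, filters, pseudocounts, blocks, covariates and left-out arrays were tried. No arrays held identical values.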

Additional observations from a re-analysis of the deposited data

Results flagged for a closer look

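The control transcripts of the DPI + DNFB arrays lay outside the range of the non-treated arrays. The mean 3'/5' ratio was 1.954 for beta-actin and 1.104 for Gapdh, against 1.25 and 0.849 on the non-treated arrays, and DPI + DNFB over non-treated was 2.039 for the hybridization controls and 2.478 for the poly-A controls, as ratios of geometric means.

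For the next 12 genes the effect of DNFB differed between cells with and without DPI, by the limma test of the interaction. Values are the log2 effect of DNFB with DPI minus that without DPI. Positive values were 4.164 for Tmem119, 3.829 for Tifab, 3.406 for Sun3, 3.248 for Spaca4, 3.066 for Rtn4rl1 and 3.054 for Amz1. Negative values were -5.436 for Traf1, -4.516 for Crisp3, -4.498 for Procr, -4.059 for Sgk1, -4.01 for Abtb2 and -3.923 for Cxcl10. Against non-treated cells, Sun3 lost its call without replicate 3 of DPI + DNFB, at -0.79, and Rtn4rl1 without replicate 1 of the non-treated cells, at -0.46.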

How the results depend on the processing

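In total, 27 alternatives were run, of which 1, DPI + DNFB replicate 2 alone for its group, was chosen after seeing the data and assumes that this array varies like the other groups. Of the 154 named genes that passed, 143 passed in all 6 fits that left out 1 array of the groups compared, 145 under quantile normalization, 146 under cyclic loess, 143 with arrays centred on their medians, 114 with replicate 2 alone, 84 and 89 with the beta-actin and Gapdh ratios as covariates and 57 on the values as deposited, whose 2 scaling targets differ 2-fold. The fit on arrays scaled to 250 held only replicate 1 of each group other than DNFB. Its counts below therefore rest on the spread of the DNFB arrays. The causes of these changes were not tested.

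Against non-treated cells, 1839 genes higher and 2303 lower became 89 and 87 on the values as deposited, 881 and 3629 with median centring, 1160 and 1467 on the arrays scaled to 500, 1038 and 1336 on those scaled to 250, 362 and 437 with the beta-actin covariate, 430 and 594 with the Gapdh covariate, and 779 and 1173 with replicate 2 alone. At an adjusted p under 0.01, 1130 were higher. Leaving out 1 array gave 1428 to 1971 higher and 1854 to 2351 lower. The 7920 probe sets called in either direction became 412 as deposited, 4926 on the arrays scaled to 500, 4742 on those scaled to 250, 1396 and 1831 with the beta-actin and Gapdh covariates and 3639 with replicate 2 alone, and 6260 to 8350 without 1 array.

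Against DNFB, 5443 genes became 703 as deposited, 3153 at the 500 target, 2665 and 2227 with the beta-actin and Gapdh covariates and 3390 with replicate 2 alone (4819 to 5458 without 1 array). Against DPI, 3359 became 1904 at an adjusted p under 0.01, 8 as deposited, 1928 and 1234 at the 500 and 250 targets, 361 and 349 with the covariates and 1059 with replicate 2 alone (2375 to 3586 without 1 array). The 3697 interactions became 2381 at 0.01, 112 as deposited, 1895 and 1855 at the targets, and 2297 and 1854 with the covariates (3219 to 3926 without 1 array). The difference in the 3'/5' ratio was 0.707 for beta-actin (0.54 to 0.932 without 1 array) and 0.255 for Gapdh (0.171 to 0.331).

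Log2 values that changed sign were, under quantile normalization, Fth1 -0.44, Txn1 -0.14, B2m -0.24 and Top2a -0.037; under cyclic loess, Fth1 -0.090; with median centring, Top2a -0.21 and Rrm2 -0.14; at the 250 target, Top2a -0.000635; with the beta-actin covariate, Hmox1 0.072, Nqo1 0.43 and Rrm2 -0.26; with the Gapdh covariate, Hmox1 0.22, Nqo1 0.34, Slc7a11 0.18 and Rrm2 -0.13; with replicate 2 alone, Rrm2 -0.045; and with the mean of a gene's probe sets, Ncf1 -0.12, Son -0.41, Rrm2 -0.52 and Traf1 0.26. Without 1 array, Top2a ran from -0.031 to 0.14 and Rrm2 from -0.002 to 0.20.

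The labels do not say that replicate numbers pair the arrays, so they were not taken as pairs. Deviations of same-numbered DPI + DNFB and non-treated arrays from their group means correlated at 0.061, 0.040 and 0.040, and each array correlated best with its own number. Over all groups, same-numbered arrays correlated at 0.0037 to 0.126, all positive. A fit with the replicate number as a block gave 2063 higher and 2463 lower.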
